A study of Mus musculus with 16 samples.

Results

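Dcn, Lum, Vim, Timp2 and Pecam1 are genes commonly used to mark stroma and endothelium, the tissue that lies beneath the intestinal epithelium. They were chosen by name, and all 5 were found among the 2438 genes of the one deposited table. The data were 16 poly-A RNA sequencing libraries of mouse duodenal epithelium, 9 from Ephb4 flox/flox mice (flox, replicates 1 to 7, 9 and 10) and 7 from mice in which Ephb4 was deleted in intestinal epithelial cells (KO, replicates 1 to 5, 7 and 8). Both groups were 8 weeks old when a high fat diet of 19 weeks began, and the flox mice carried the floxed alleles without the deletion. The sample labels name duodenal epithelium, the design text names tissue of the proximal small intestine, and neither names the recombinase. The comparison asked how loss of the receptor tyrosine kinase EphB4 from the epithelium changes the transcripts of the small intestine in diet-induced obesity.

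Fibroblasts of the lamina propria make decorin (Dcn) and lumican (Lum), small leucine-rich proteoglycans that bind collagen fibrils and set their spacing. Vimentin (Vim) is the intermediate filament protein of mesenchymal cells, endothelium and leukocytes, TIMP2 (Timp2) is a secreted inhibitor of matrix metalloproteinases, and PECAM1 (Pecam1, CD31) is an adhesion molecule at endothelial cell contacts that leukocytes cross, also carried by platelets and many leukocytes. Mature enterocytes are not a usual source of these transcripts. In bulk RNA, more cells of a type and more RNA per cell cannot be told apart.

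The deposited values were read counts divided by a size factor for each library, called normalised counts here. Between 3592468 and 5316273 reads fell in the listed genes of a library. The table held only genes that the authors had called different between these same groups at an adjusted p of at most 0.0497. Of the 16488 genes they adjusted over, 14.8% were listed, and 6.97% were listed as higher in KO. That the 5 markers are listed is therefore fixed by how they were chosen, and their difference between genotypes is a description. Ephb4 itself, the deleted gene, ranged from 103 to 354 normalised counts in flox and from 23.3 to 84.7 in KO without overlap (exact permutation p = 8.74e-05, two-sided, the smallest that the 11440 assignments of 9 and 7 libraries allow). Reads from other cells and from exons that are not deleted may be part of these counts, which was not tested.

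A single library stood apart in each group. KO replicate 1 held the highest level of all 16 libraries for each of the 5 markers, and flox replicate 2 the highest flox level for each of them. Among the 1061 listed genes that were higher in KO and had a mean of at least 10 normalised counts, KO replicate 1 was highest in 55.5% and flox replicate 2 was the highest flox library in 33.6%. Among all 2339 listed genes at that mean, in either direction, the shares were 25.2% and 15.5%. KO replicate 1 also held the most Ephb4 of the KO libraries and had the largest size factor, 1.38 against a lowest of 0.878. The main marker differences, correlations and likeness values below are given with and without these libraries. No batch is given in the labels.

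Dcn and Lum lie side by side on chromosome 10 of GRCm38, both on the plus strand, with 46984 bases and no annotated gene between them. Dcn (ENSMUSG00000019929) spans 97479609 to 97518143 and Lum (ENSMUSG00000036446) spans 97565128 to 97572703. Because they are members of one protein family, with biglycan (Bgn) as a further listed relative, their sequences were compared to see whether reads could be assigned to the wrong gene. The longest run of bases shared by the transcripts was 12 for Dcn and Lum, 17 for Dcn and Bgn and 14 for Lum and Bgn. The coding stretches of 48 bases around the first of these shared runs are shown 5′ to 3′ from the GRCm38 sequence with GENCODE M21 transcripts, with the shared run in capitals. They lie at chr10:97517599-97517646 in exon 8 of Dcn and at chr10:97568245-97568292 in exon 2 of Lum, both plus strand.
Dcn: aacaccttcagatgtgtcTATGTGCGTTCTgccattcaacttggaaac
Lum: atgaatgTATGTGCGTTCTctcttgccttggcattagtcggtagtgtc
The 2 stretches differ outside the capitals. The shared run sits earlier in the Lum window only because that window begins at the start of the coding sequence.

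Dcn and Bgn are closer relatives, and their longest shared run lies within a leucine-rich repeat region where the neighbouring bases are also alike. The windows are chr10:97513660-97513707 in exon 7 of Dcn and chrX:73493261-73493308 in exon 7 of Bgn, both plus strand, with the shared run in capitals.
Dcn: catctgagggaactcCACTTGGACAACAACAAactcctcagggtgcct
Bgn: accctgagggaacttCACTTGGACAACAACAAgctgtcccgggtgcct
Even here no identical stretch was longer than 17 bases.

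Dcn was higher in most KO libraries, and the size of the difference rested heavily on 1 of them. In flox its normalised counts ran from 4.40 through a median of 17.3 to 79.0, the last in flox replicate 2. In KO they ran from 8.06 through a median of 54.9 to 433, the last in KO replicate 1. The groups overlapped, since 3 of 7 KO libraries (replicates 1, 5 and 8) lay above every flox library and KO replicates 2 and 3, at 13.1 and 8.06, lay below the flox median. The means were 21.4 ± 22.4 (SD, n = 9) in flox and 109.5 ± 148.9 (SD, n = 7) in KO, 5.12-fold apart. KO replicate 1 alone gave 56.5% of the KO sum, and without it the KO mean was 55.6 ± 46.8 (SD, n = 6), 2.60-fold above flox. Flox replicate 2 acted the other way. Without it the flox mean was 14.2 ± 6.11 (SD, n = 8) and the fold 7.73, and without both libraries the fold was 3.92.

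Lum was the least abundant of the markers and close to the limit of detection. Its recovered reads numbered 13 over all 9 flox libraries, with 0 reads in 5 of them and at most 7 in any. The KO libraries held 125 reads, of which 97 were in KO replicate 1 and 28 in the other 6, and KO replicate 3 held 0. In normalised counts, 3 reads were worth 2.87 to 3.42 in the flox and KO libraries at 0, which is the level that a count of 0 allows. Only flox replicate 2, at 7.28, stood clearly above that level in flox, while KO replicates 1, 5, 7 and 8, at 70.2, 5.71, 7.09 and 11.5, did so in KO. The means were 1.48 ± 2.42 (SD, n = 9) and 13.9 ± 25.1 (SD, n = 7), and the KO mean was 4.55 ± 4.38 (SD, n = 6) without replicate 1. The level given for a count of 0 covers counting error only, while the SDs are spreads between libraries.

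Vim (chromosome 2, 13573927 to 13582826, plus strand, ENSMUSG00000026728) was the most abundant of the markers and the least changed. Flox libraries ran from 72.9 through a median of 107.2 to 251.6 normalised counts, and KO libraries from 106.4 through a median of 211.4 to 566. KO replicates 1 and 5, at 566 and 306, lay above every flox library, and the other 5 lay within the flox range. The means were 122.1 ± 58.9 (SD, n = 9) and 247.4 ± 155.8 (SD, n = 7), a 2.03-fold difference that was 1.59-fold without KO replicate 1, 2.34-fold without flox replicate 2 and 1.83-fold without both.

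Timp2 (chromosome 11, 118301069 to 118355740, minus strand, ENSMUSG00000017466) overlaps Cep295nl on the same strand, and reads in the overlap are uncertain. Its flox values ran from 8.83 through a median of 15.3 to 57.2 normalised counts. Its KO values ran from 24.3 through a median of 53.6 to 398, so that every KO library lay above the flox median. The 3 KO libraries above every flox library were again replicates 1, 5 and 8. The means were 25.6 ± 18.7 (SD, n = 9) and 99.0 ± 133.3 (SD, n = 7), 3.86-fold apart. The fold was 1.92 without KO replicate 1, 4.56 without flox replicate 2 and 2.27 without both.

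Pecam1 (chromosome 11, 106654217 to 106750628, minus strand, ENSMUSG00000020717) separated the genotypes best of the 5. Flox libraries ran from 15.4 through a median of 40.3 to 95.6 normalised counts, and KO libraries from 38.3 through a median of 113.9 to 240.4. KO replicates 1, 4, 5 and 8, at 240.4, 113.9, 132.3 and 132.9, lay above every flox library, and the other 3 lay within the flox range. The means were 45.0 ± 22.1 (SD, n = 9) and 114.5 ± 66.4 (SD, n = 7), 2.54-fold apart. The fold was 2.08 without KO replicate 1, 2.96 without flox replicate 2 and 2.42 without both. Thus KO replicate 1 weighed less on Pecam1 and Vim, at 30.0% and 32.7% of the KO sum, than on Dcn, Timp2 and Lum, at 56.5%, 57.4% and 72.0%.

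**Figure D1:**
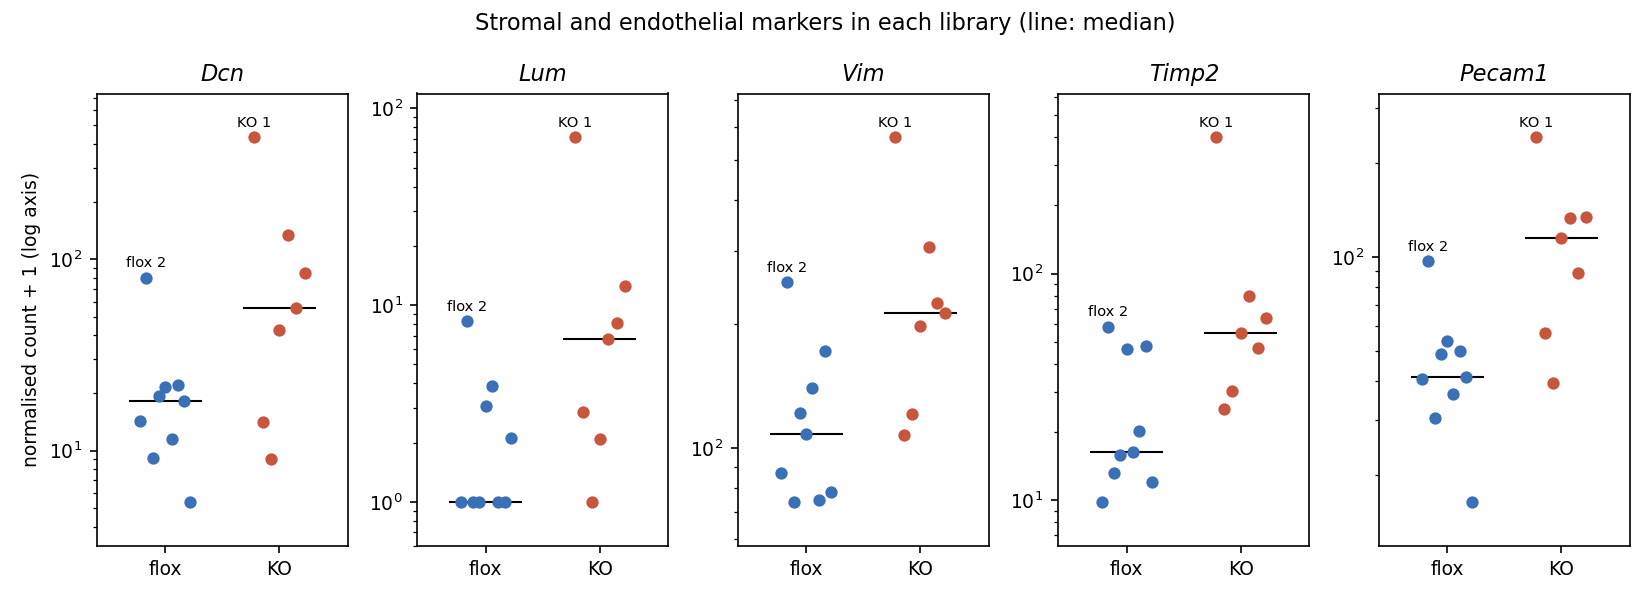
Normalised count of each marker (y axis, log scale of normalised count + 1) in each library, flox (n = 9) beside KO (n = 7), with the group medians as bars. KO replicate 1 is the highest library and flox replicate 2 the highest flox library in all 5 panels, and 3 to 5 of the 7 KO libraries lie within the flox range in each.

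The order of the markers can be compared only per length of transcript. In flox, normalised counts per kb of annotated gene length were 25.7 ± 12.4 (SD, n = 9) for Vim, 7.23 ± 3.55 for Pecam1, 6.58 ± 4.79 for Timp2, 3.66 ± 3.83 for Dcn and 0.604 ± 0.990 for Lum. From Pecam1 down, each mean differed from its neighbour by less than the larger of their SDs, while Vim stood above Pecam1 by more than its SD. In KO the means per kb were 52.2 ± 32.8 (SD, n = 7) for Vim, 25.4 ± 34.2 for Timp2, 18.8 ± 25.5 for Dcn, 18.4 ± 10.7 for Pecam1 and 5.69 ± 10.3 for Lum. The KO spreads of Timp2 and Dcn exceeded their means, and Vim, Timp2, Dcn and Pecam1 each differed from the next by less than the larger of their SDs. Only Pecam1 and Lum, the last pair, differed by more.

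KO replicate 1 did not raise the 5 markers by one common factor. Its level over the median of the other KO libraries was 2.38-fold for Pecam1, 2.77-fold for Vim, 7.99-fold for Timp2, 8.97-fold for Dcn and 18.5-fold for Lum. The ratio of Dcn to Vim was 0.765 in KO replicate 1, against 0.0672 to 0.432 in the other KO libraries and 0.0571 to 0.314 in flox. The ratio of Dcn to Pecam1 was 1.80 there, against 0.276 to 0.826 in flox. By contrast the ratio of Pecam1 to Vim, 0.425, lay within the flox range of 0.20 to 0.662. On the log2(normalised count + 1) scale the excess of KO replicate 1 over the median of the other KO libraries was 4.02 for Lum, with 1 listed gene above it, 3.15 for Dcn, with 15 above it, and 2.98 for Timp2, with 23 above it. It was 1.47 for Vim, with 110 above it, and 1.26 for Pecam1, with 146 above it. Among all 2339 listed genes at that mean or above the median excess was 0.0082, and among the 1061 of them higher in KO it was 0.41. Flox replicate 2 showed the same contrast in smaller form, at 5.18-fold the median of the other flox libraries for Dcn, 3.80-fold for Timp2, 2.60-fold for Vim and 2.39-fold for Pecam1.

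The genotypes were compared by limma on log2(normalised count + 1) over the listed genes whose mean was 10 normalised counts or more, with p-values adjusted over 16488 genes and unlisted genes set to a p of 1. Of the 4 markers that passed the filter, 1 was called higher in KO (Pecam1), while 19.2% of all 2339 genes tested were called higher. All 4 had an unadjusted p under 0.05, as did 98.6% of the genes tested, so that count says nothing about the markers. Pecam1 rose by 1.26 on the log2 scale (SE 0.35, adjusted p = 0.0377 by limma). The log2 difference was 1.54 for Timp2 (SE 0.51, adjusted p = 0.0700 by limma), 0.93 for Vim (SE 0.32, adjusted p = 0.0796) and 1.70 for Dcn (SE 0.68, adjusted p = 0.157), and these 3 did not pass. Lum, whose mean of 6.93 missed the filter, differed by 1.74 (SE 0.75, adjusted p = 0.216) in the limma fit without a filter. The Dcn difference was larger than that of Pecam1, and so was its standard error.

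In the authors' deposited table the log2 fold change was 3.24 for Lum (adjusted p = 0.0219), 2.36 for Dcn (0.0149), 1.95 for Timp2 (0.0163), 1.35 for Pecam1 (0.00219) and 1.02 for Vim (0.0141). The values here and there use different scales, since the limma values are means of log2(normalised count + 1). By edgeR on recovered reads 3 of the 4 tested markers were called (Dcn, Timp2 and Pecam1; adjusted p from 0.0295 to 0.0457), beside 21.6% of all genes tested called higher. By DESeq2 all 4 were called, beside 37.3% of all genes tested, and that tool is the authors' own, per the submitters' processing notes. Taken 1 gene at a time over the 11440 possible assignments of genotype, the two-sided exact permutation p was 0.00612 for Pecam1, 0.0122 for Timp2, 0.0185 for Vim, 0.0365 for Dcn and 0.0415 for Lum, unadjusted and on genes already listed for this difference.

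Without KO replicate 1 the log2 difference stayed positive for all 5 markers and none passed limma's adjusted threshold, at 1.21 for Dcn, 1.15 for Lum, 0.70 for Vim, 1.10 for Timp2 and 1.04 for Pecam1 (adjusted p from 0.0873 to 0.603). The share of all listed genes called higher fell to 8.29% in the same fit. The unadjusted exact permutation p over 5005 assignments was then 0.0160 for Pecam1, 0.0340 for Timp2, 0.0478 for Vim, 0.0909 for Dcn and 0.101 for Lum. With flox replicate 2 left out as well, the values were 1.49 for Dcn, 1.42 for Lum, 0.84 for Vim, 1.28 for Timp2 and 1.196 for Pecam1. Pecam1 then passed again (adjusted p = 0.0337 by limma). Leaving out flox replicate 2 alone brought Vim (1.08, adjusted p = 0.0321 by limma) and Timp2 (1.72, adjusted p = 0.0425) past the threshold too. So did leaving out KO replicate 2, while among single libraries left out Dcn passed only without KO replicate 3 (2.14, adjusted p = 0.0472). The call of Pecam1 was lost without any 1 of 11 libraries, with an adjusted p between 0.0501 and 0.0873.

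**Figure D2:**
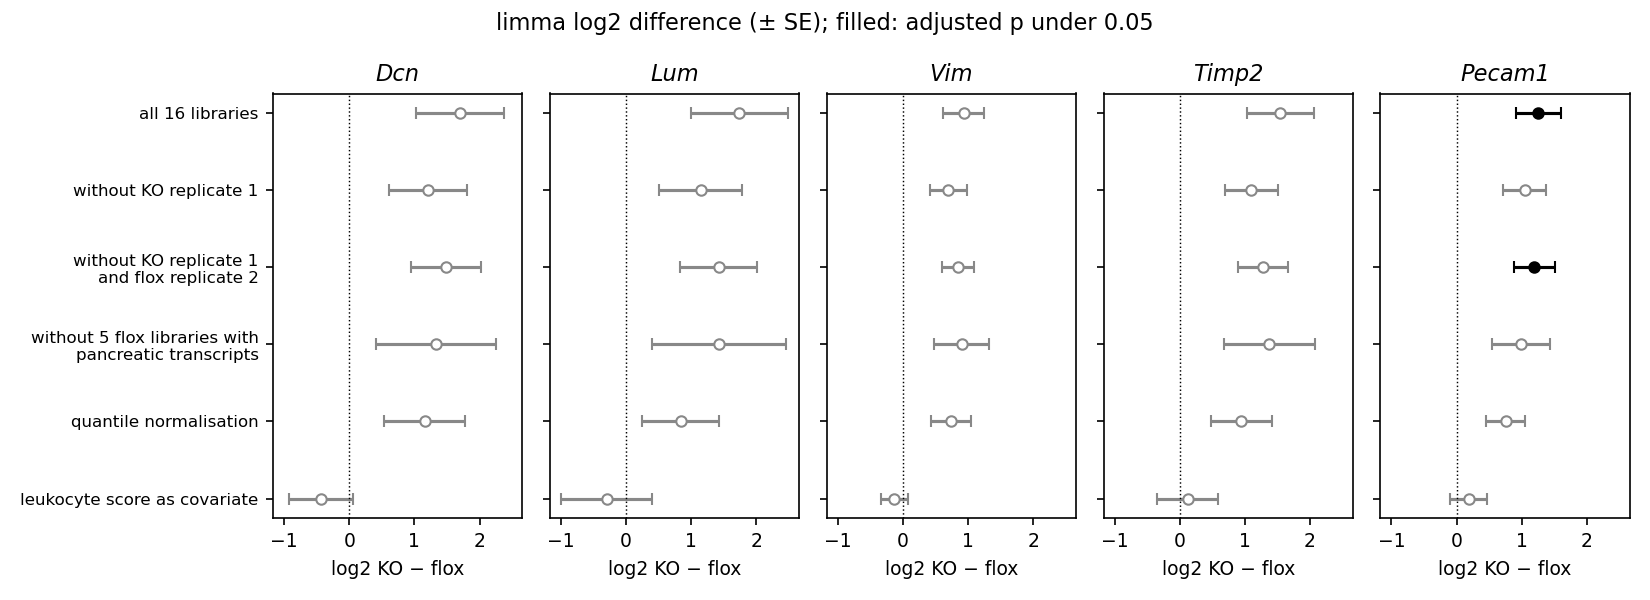
Log2 difference of each marker, KO minus flox (x axis, log2 of normalised count + 1), in 6 settings of the limma fit; bars are standard errors and filled points have an adjusted p under 0.05. The differences lie between 0.70 and 1.74 in the first 5 settings and between -0.43 and 0.19 with the leukocyte covariate.

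Leukocyte transcripts moved with the markers across the libraries. The 12 listed genes of the T cell, B lineage and general leukocyte lists, all of them listed as higher in KO, had a mean log2 level of 6.28 to 7.88 in flox and 6.80 to 8.64 in KO. The highest flox library was flox replicate 2 and the highest KO library was replicate 1. The KO libraries fell apart into replicates 2 and 3, at 6.80 and 6.98, and the other 5, at 8.08 to 8.64. KO replicates 2 and 3 were also the lowest KO libraries for Dcn, Vim, Timp2 and Pecam1. Within flox (n = 9) Pearson's r with this level ran from 0.67 to 0.89 over the 5 markers, and Spearman's rho from 0.50 to 0.83. The exact permutation p of r ran from 0.00211 to 0.0509, and none passed after adjustment over 60 relations (0.0863 to 0.278). Without flox replicate 2 the r values ran from 0.39 to 0.76. Without the 2 flox libraries farthest from the median of the leukocyte level they ran from 0.26 to 0.70. Within KO (n = 7) r ran from 0.78 to 0.93 and rho from 0.86 to 0.93. The exact permutation p of r in KO ran from 0.00437 to 0.0363, and none passed after adjustment (0.0863 to 0.272). The KO values of r were 0.71 to 0.92 without KO replicate 1. Without KO replicates 2 and 3, the 2 farthest from the KO median, they were 0.89 to 0.96.

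With the leukocyte level as a covariate in limma, the log2 difference was -0.43 for Dcn, -0.29 for Lum, -0.13 for Vim, 0.12 for Timp2 and 0.19 for Pecam1, and none passed. In the same fit 0.171% of all listed genes were called higher. The leukocyte genes were listed on the same contrast, so the covariate carries the genotype difference as well, and the part of leukocytes in the marker differences was not tested. Transcripts of the exocrine pancreas were high in 5 flox libraries (replicates 4, 6, 7, 9 and 10). Against the 4 other flox libraries the log2 difference was 1.33 for Dcn, 1.43 for Lum, 0.90 for Vim, 1.38 for Timp2 and 0.99 for Pecam1, positive for all 5, and none passed with 0.214% of all listed genes called higher.

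Within a genotype the markers rose and fell together. The difference between genotypes does not enter these correlations, but the choice of genes by listing can. Listed genes higher in KO had a median pairwise r of 0.22 in flox and 0.26 in KO, against 0.01 and 0.004 for all listed genes. The markers were also chosen with earlier results of these data known. The permutation p-values below are therefore not free of that selection. Dcn and Pecam1 formed the tightest pair in flox and by the mean of r over both genotypes, while in KO Dcn and Vim were as close (r = 0.97). In flox (n = 9) their Pearson's r on log2(normalised count + 1) was 0.97 (exact permutation p = 8.27e-05, adjusted over 20 relations 0.00165) and Spearman's rho was 0.98 (exact permutation p = 4.96e-05). In KO (n = 7) r was 0.97 (exact permutation p = 0.00119, adjusted 0.00595) and rho 0.93 (exact permutation p = 0.00675). The relation did not rest on the libraries that stood apart, with r at 0.97 without flox replicate 2 and 0.95 without KO replicate 1. Without the 2 libraries farthest from the median of Dcn it was 0.96 in flox and 0.91 in KO.

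The other pairs in flox depended on flox replicate 2. Over all 10 pairs r ran from 0.39 to 0.97 with a median of 0.66, and 5 of 10 passed after adjustment, of which 1 also passed by Spearman's rho. Without flox replicate 2 the median was 0.36. The r of Dcn and Vim went from 0.72 to 0.37, that of Dcn and Timp2 from 0.74 to 0.59, and that of Dcn and Lum from 0.47 to -0.23. Lum had no reads in 5 flox libraries, which leaves little to correlate. Without the 2 libraries farthest from the median of the first gene the flox values ran from -0.20 to 0.96.

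In KO the co-variation was broader. All 10 pairs had an r between 0.86 and 0.97, with a median of 0.92, and each passed after adjustment (0.00595 to 0.0245, exact permutation). By Spearman's rho 5 of 10 passed. Without KO replicate 1 the values ran from 0.64 to 0.96 with a median of 0.89, and the pairs of Dcn, Vim, Timp2 and Pecam1 stayed between 0.87 and 0.96. Without the 2 libraries farthest from the median of the first gene the KO values ran from 0.45 to 0.97. The pairs with Lum were then at 0.45 to 0.66. KO replicates 2 and 3 were the lowest KO libraries for Dcn, Vim, Timp2 and Pecam1, and r without both was not computed. For comparison, the median r over all pairs of listed genes was 0.01 in flox and 0.004 in KO, and over pairs of listed genes higher in KO it was 0.22 in flox and 0.26 in KO. Whether the correlations differed between flox and KO was not tested.

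**Figure D3:**
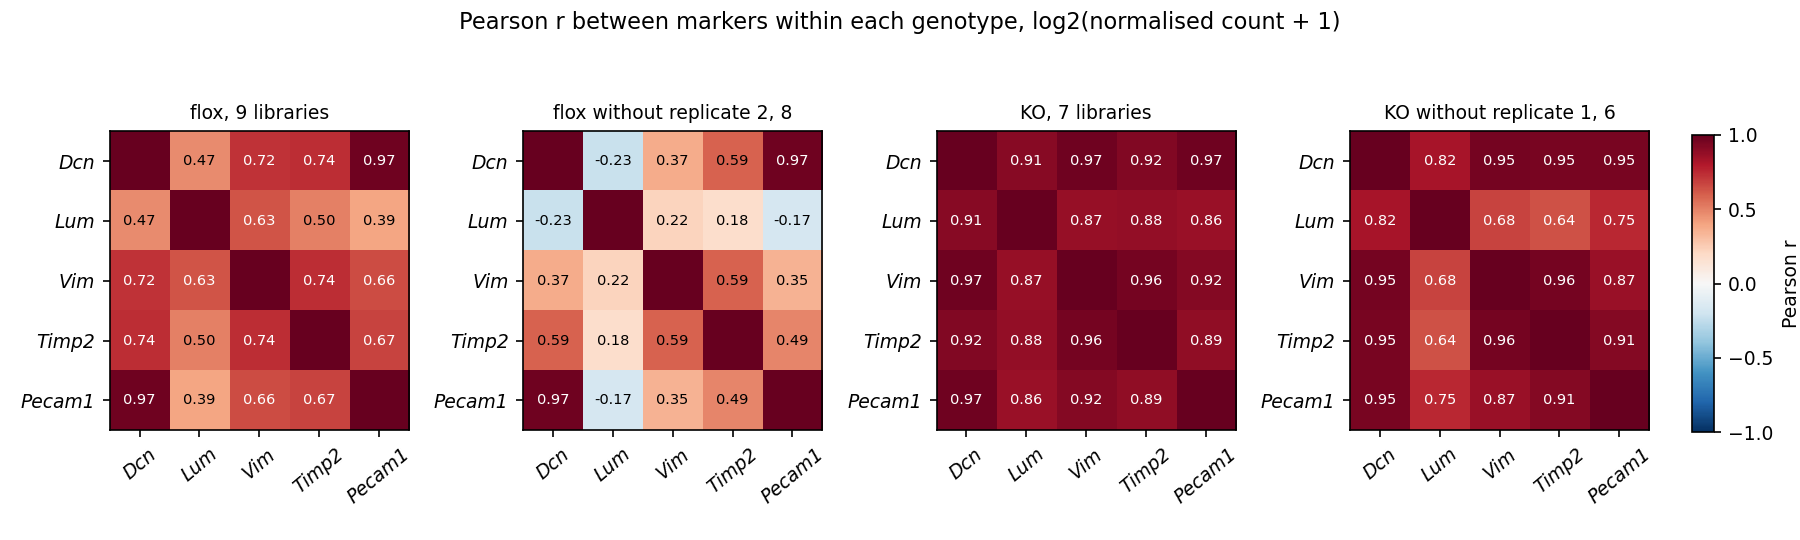
Pearson's r of log2(normalised count + 1) for the 10 pairs of markers (cells), in flox and in KO, with all libraries and without flox replicate 2 or KO replicate 1. Dcn and Pecam1 hold 0.95 to 0.97 in all 4 panels, while pairs with Lum drop to as low as -0.23 in flox without replicate 2.

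A fit of every listed gene on genotype plus the level of 1 marker asked which genes followed it after the genotype means were taken out. By limma, 278 of 2338 genes (11.9%) followed Dcn upward, 287 (12.3%) Vim, 272 (11.6%) Timp2, 247 (10.6%) Pecam1 and 174 of 2339 (7.44%) Lum. Every other marker in the fit was among them in each case. Without KO replicate 1 and flox replicate 2 the followers were 101 for Dcn (4.37%), 57 for Pecam1 (2.47%), 42 for Vim (1.82%), 1 for Timp2 (0.0433%) and 0 for Lum (0.0%). Vim and Pecam1 then still followed Dcn, Dcn followed Pecam1, and no other marker followed Vim, Timp2 or Lum.

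Dcn moved more steeply than Pecam1. On the log2 scale Dcn rose by 1.85 per unit of Pecam1 (SE 0.16, adjusted p = 1.48e-06 by limma), and by 1.65 (SE 0.21, adjusted p = 0.00161) without the libraries that stood apart. No other listed gene had a smaller p than Dcn in either fit on Pecam1.

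**Figure D4:**
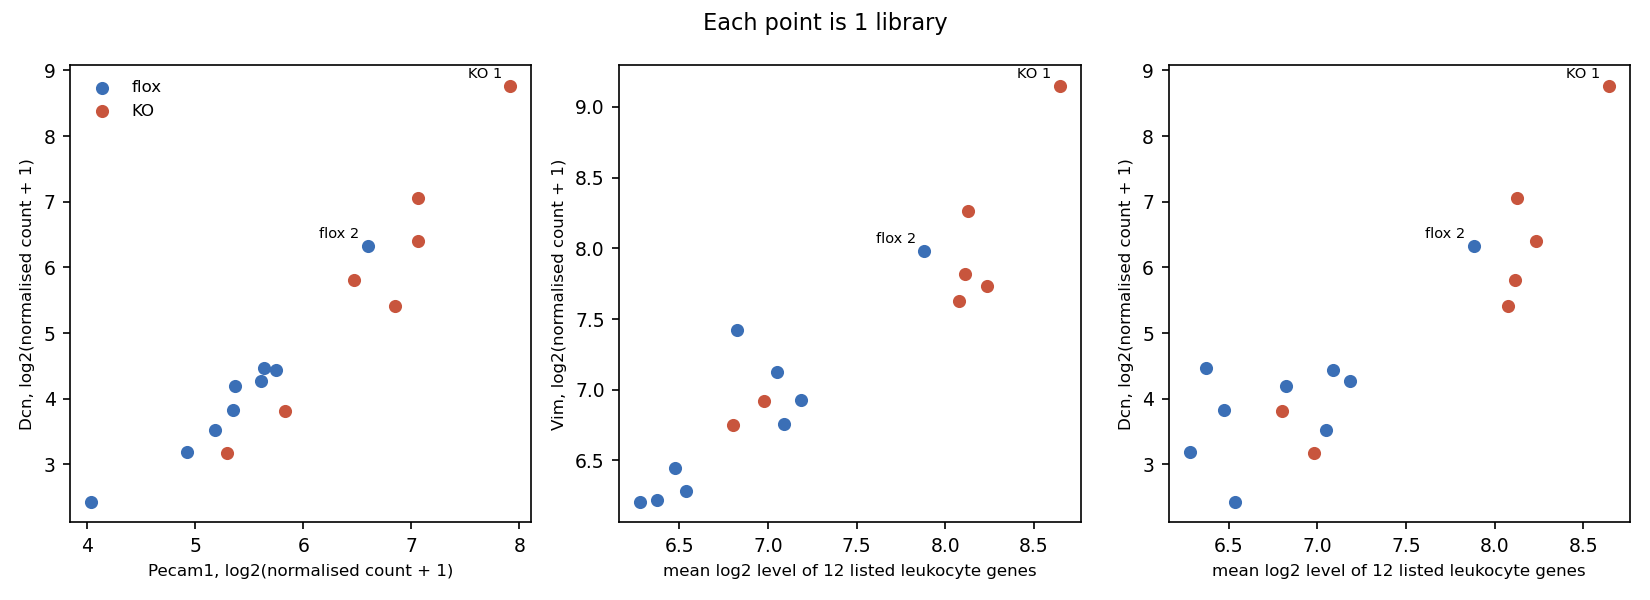
Level of Dcn against Pecam1 (left), Vim against the mean log2 level of 12 listed leukocyte genes (middle) and Dcn against that mean (right), each point 1 library, all axes on the log2 scale of normalised count + 1. Dcn and Pecam1 lie along one line in both genotypes, and in the right panel 8 flox libraries and KO replicates 2 and 3 form a low group from which flox replicate 2 and the other 5 KO libraries stand apart.

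The 3 listed genes most like each marker were taken by the mean of r within flox and r within KO. For Dcn the nearest gene was Pecam1 at 0.97, followed by Grem1 at 0.95, which encodes gremlin 1, a secreted BMP antagonist made by intestinal fibroblasts near the crypts. March1, a ubiquitin ligase of antigen-presenting cells, and Syk, a tyrosine kinase of immune cells, came next, both at 0.94. For Pecam1 the nearest after Dcn were March1 at 0.95, Grem1 at 0.94 and Slamf1, a receptor of lymphocytes, at 0.92. Grem1 was at 5.55 ± 8.52 normalised counts in flox (SD, n = 9) and 71.2 ± 109 in KO (SD, n = 7), with 27.0 in flox replicate 2 and 309.9 in KO replicate 1.

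Vim was most like Trim35, a tripartite motif protein, at 0.97, Rgs10, a regulator of G protein signalling, at 0.91 and Syk at 0.91. Timp2 was most like Pik3ip1, an inhibitor of PI3 kinase, at 0.94, Rarres2, which encodes the chemoattractant chemerin, at 0.93 and Rgs10 at 0.91. Lum was most like Pitpnc1 at 0.91, Phtf2 at 0.84 and Ehd3 at 0.84. Without KO replicate 1 and flox replicate 2 these means ran from 0.82 to 0.94 for the genes other than markers named with Dcn, Vim, Timp2 and Pecam1, and from 0.70 to 0.88 for those named with Lum. Apart from Dcn and Pecam1, the markers were not each other's nearest genes. For Dcn 54 listed genes were more alike than Vim, 70 than Timp2 and 215 than Lum, and for Pecam1 the numbers were 93, 97 and 247. The points share library and depth, and these genes were picked as the highest of 2339, so the values are descriptions.

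With all flox libraries, r with each other library feature was smaller in size than r with the leukocyte genes for all 5 markers. No difference between features was tested. Over the 5 markers r with the listed enterocyte genes was -0.62 to -0.35 in flox, or -0.59 to -0.22 without flox replicate 2, and -0.68 to -0.45 in KO, or -0.34 to 0.09 without KO replicate 1. With the size factor it was 0.50 to 0.77 in KO and -0.22 to 0.29 without KO replicate 1, so that relation rested on 1 library. With Ephb4 it was 0.49 to 0.82 in KO and turned to between -0.52 and -0.19 without KO replicate 1. With the pancreatic genes it was -0.56 to -0.12 in flox and 0.47 to 0.70 in KO, or 0.28 to 0.65 without KO replicate 1. With the proliferation genes it was 0.16 to 0.60 in flox and 0.26 to 0.65 in KO, or -0.45 to 0.02 without KO replicate 1. Without flox replicate 2 the leukocyte genes gave the largest r in flox only for Vim, at 0.76. The r of Timp2 was then 0.71 with proliferation genes and 0.70 with Ephb4, against 0.46 with leukocyte genes. For Dcn it was 0.50 with Ephb4 against 0.39 with leukocyte genes. For Lum it was -0.59 with enterocyte genes against 0.49, and for Pecam1 -0.41 with pancreatic genes against 0.40. None of the 60 relations with library features passed after adjustment.

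Few other markers of stroma or endothelium were in the table. Of 95 further genes of fibroblasts and matrix, blood and lymphatic endothelium, smooth muscle and pericytes, and enteric glia and neurons, 5 were listed (5.26%, against 14.8% of all genes adjusted over), 3 as higher and 2 as lower in KO. The fibroblast and matrix list had 2 of 36 listed (5.56%), the blood endothelium list 3 of 26 (11.5%), and the lymphatic (8 genes), smooth muscle and pericyte (16) and glia and neuron (9) lists none. Unlisted genes, among them the collagen and VE-cadherin genes that define these cells, were not analysed here.

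Bgn, the relative of Dcn whose sequence is shown above, was at 81.5 ± 54.0 normalised counts in flox (SD, n = 9) and 232.9 ± 267 in KO (SD, n = 7). KO replicate 1 held 824 and the other KO libraries 59.4 to 197.6, the same arrangement as for Dcn. Its log2 difference of 1.24 did not pass (adjusted p = 0.215 by limma). Fbln1, the gene of the matrix protein fibulin 1, fell by 0.48 on the log2 scale (adjusted p = 0.0189 by limma), from 5937 ± 911 to 4257 ± 748 normalised counts.

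Of the endothelial genes, Icam2, an adhesion molecule of endothelium and leukocytes, rose by 1.64 (adjusted p = 0.0414 by limma), from 7.90 ± 7.05 (SD, n = 9) to 22.4 ± 9.20 (SD, n = 7) normalised counts. The transcription factor gene Fli1, active in endothelium and blood cells, was at 27.1 ± 11.1 and 58.5 ± 26.3 and did not pass (adjusted p = 0.0586 by limma). The water channel gene Aqp1 fell by 0.94 (adjusted p = 0.0193 by limma), from 1566 ± 442 to 828 ± 280. Icam2 and Aqp1, both on the endothelial list, moved in opposite directions. Without KO replicate 1 Icam2 no longer passed (1.51, adjusted p = 0.0932 by limma), while Aqp1 (-0.94, adjusted p = 0.0422) and Fbln1 (-0.40, adjusted p = 0.0377) still did.

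Among genes of related function, those for leukocyte adhesion and passage through endothelium had 7 of 15 listed (46.7%, against 14.8% of all genes), 6 of them higher in KO (Itgal, Itgb2, Itga4, Icam1, Icam2 and Vcam1) and F11r lower. Of these, Icam2 passed limma here, and Vcam1, an adhesion molecule of activated endothelium, was at 21.2 ± 14.4 normalised counts in flox (SD, n = 9) and 76.1 ± 63.8 in KO (SD, n = 7; adjusted p = 0.271 by limma). The other proteoglycans and metalloproteinase inhibitors had 1 of 12 listed (Bgn; 8.33%). The matrix proteases had 1 of 17 (5.88%), Mmp15, a membrane-bound metalloproteinase that fell by 0.84 (adjusted p = 0.0117 by limma). The TGF-beta list had 1 of 16 (6.25%), Smad7, an inhibitor of the pathway that fell by 0.52 (adjusted p = 0.0115 by limma). The intermediate filament list had 2 of 12 (16.7%), the linker gene Plec, which fell by 0.49 (adjusted p = 0.0251 by limma), and the keratin gene Krt20 at -0.40 (adjusted p = 0.0935 by limma). None of these lists other than that of leukocyte adhesion held more than 2 listed genes, and most were at or below the share of all genes. Mmp15, Smad7 and Plec also passed without KO replicate 1. The lists were chosen with earlier results of these data known, so the shares listed are descriptions.

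Lists of other cells were represented unevenly. The general leukocyte list had 6 of 10 genes listed (60.0%), all higher in KO, against 14.8% of all genes listed and 6.97% listed as higher. T lymphocytes had 4 of 19 (21.1%), B lineage cells 2 of 14 (14.3%) and mast cells 2 of 8 (25.0%), also all higher. These shares rest on few genes and lie above the 6.97% of all genes listed as higher, but below the general leukocyte list. Macrophages and dendritic cells (13 genes) and adipocytes (8) had none. The enterocyte list had 7 of 15 (46.7%) and the general epithelial list 3 of 8 (37.5%) listed, all lower. The proliferation list had 12 of 17 listed (70.6%), all higher, and the pancreas list 21 of 27 (77.8%), all lower. All of these lists were chosen with earlier results of these data known, so their shares are descriptions. The part of these cells in the levels of the 5 markers was not tested.

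**Figure D5:**
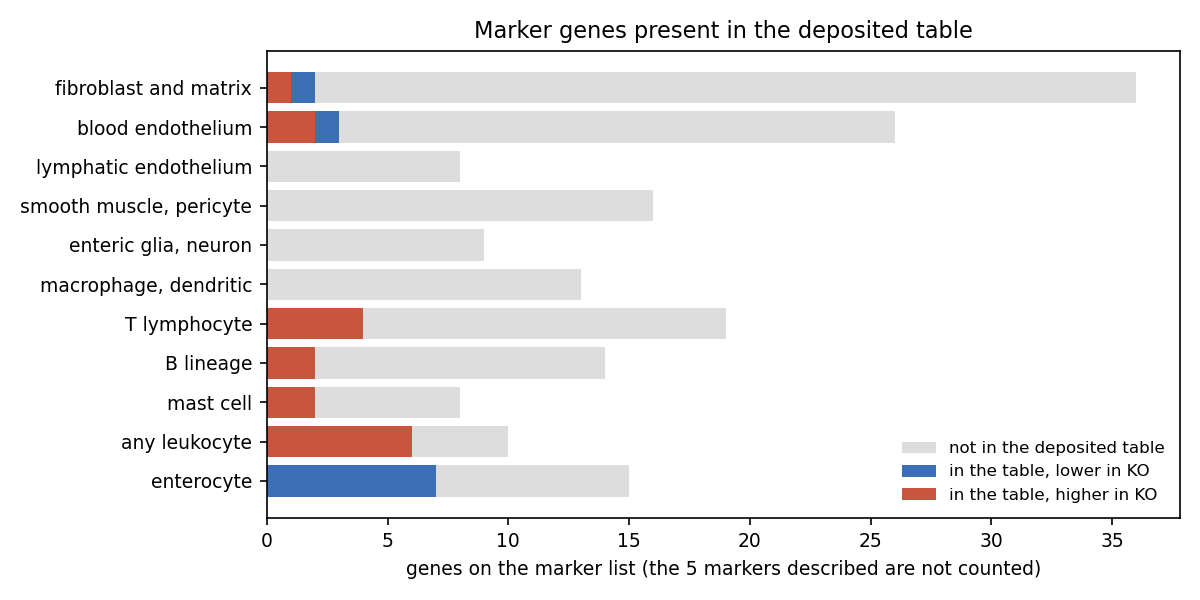
Number of genes of each marker list (bars, from 0) that were in the deposited table as higher in KO, as lower in KO, or not in the table; the 5 markers described are not counted. Of 36 fibroblast and matrix genes 2 were in the table and of 26 blood endothelium genes 3, against 6 of 10 general leukocyte genes.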

How the data were processed

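Messenger RNA of duodenal epithelium was selected with poly-T beads and prepared with a NEBNext Ultra kit, per the labels' protocols. The submitters' processing notes name GRCm38 and the tools DESeq2 1.20.0, HISAT2 2.0.5 and featureCounts 1.5.0-p3, without settings. The deposited signal of each library was its read counts over a size factor, judged from the values: 100% of values were whole multiples of 1 step within 0.0001 reads. An automatic check of this could not test KO replicates 1 and 3. Also deposited were the authors' log2 fold changes and adjusted p-values. Total depth is unknown, as unlisted genes are not analysed here. No column of other samples was present.

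The 5 genes and all lists were chosen with earlier results of these data known. limma 3.58.1 (mean-variance trend, robust moderation) was run on log2(normalised count + 1), taking the 2339 listed genes whose mean was 10 or more, two-sided, with Benjamini-Hochberg adjustment over 16488 genes. This scale understates fold changes of low genes. Differences are called at an adjusted p under 0.05. Alternatives were other pseudocounts, no filter, other scalings, each library left out, a replicate block, a leukocyte covariate, and edgeR 4.0.16 and DESeq2 1.42.0 on recovered reads. The limma, edgeR, DESeq2 and limma covariate fits were tested on simulated counts with 1 common dispersion and no outlying library. The replicate block, the other scalings and the fits without libraries were not. Correlations used exact permutation of pairings. Genes named are the 5 markers, Ephb4, listed genes of the lists and, per marker, the 3 most like it.

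The labels do not say whether each library is a separate mouse; the numbers of libraries equal those of mice in the design text. If any share a mouse, p-values measure a partly technical spread. None were duplicates: chi-square over its degrees of freedom was at least 16.7 for libraries of a group.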

Additional observations from a re-analysis of the deposited data

Results flagged for a closer look

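Of 48 groups tested (24 genes in flox and in KO), 20 held a library whose gap to the next was larger than Dixon's 95% limit, 11 of them KO replicate 1 and 9 flox replicate 2. Chance flags about 1 in 20 groups, but that rate is no yardstick here: the genes of one library are not independent, and many were picked for following markers that peak in these 2 libraries. KO replicate 1 stood apart in normalised counts for Dcn (433), Lum (70.2) and Timp2 (398), and flox replicate 2 for Dcn (79.0), Lum (7.28) and Pecam1 (95.6). Vim was not flagged in either group. Ephb4 stood apart in KO replicate 1 at 84.7. Among the genes named for likeness or in the lists, KO replicate 1 stood apart for Bgn (824), Grem1 (309.9), Trim35 (253), Rgs10 (176), Rarres2 (101), Ehd3 (76.8) and Pik3ip1 (71.7). Flox replicate 2 stood apart for Syk (337), March1 (104), Trim35 (88.4), Vcam1 (53.0), Grem1 (27.0) and Slamf1 (16.6).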

How the results depend on the processing

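The number of markers passing limma, 1 of 4, was 0 with quantile scaling, the replicate block, the leukocyte covariate, without the flox libraries high in pancreatic transcripts, and by edgeR without KO replicates 1 and 3. It was 3 by edgeR and 4 by DESeq2, with or without replacement of outlying counts, and 0 to 3 when single libraries were left out. Listed genes passing numbered 1269, against 355 with quantile scaling, 9 with the block, 9 with the leukocyte covariate, 11 without the pancreatic flox libraries, 354 by edgeR without KO replicates 1 and 3, 2112 and 2109 by DESeq2 with and without replacement, and 518 to 1462 with single libraries left out. Fewer samples entered the fits without libraries; otherwise the cause was not tested. The labels do not say whether equal replicate numbers pair the samples. Same-numbered libraries deviated from their group means with r from -0.43 to 0.37 over 6 numbers, and 1 KO library correlated best with its own number. With so few numbers these values cannot decide it.

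Pecam1 missed the threshold at 0.75 with quantile scaling, 0.93 with the block, 0.19 with the leukocyte covariate, 0.99 without the pancreatic flox libraries and 1.21 by edgeR without KO replicates 1 and 3. It passed under 14 of 30 alternatives, with adjusted p from 0.00371 to 1. Dcn (2.36) and Timp2 (1.95) passed by edgeR and DESeq2, and Lum (3.24) and Vim (1.02) by DESeq2. Only the leukocyte covariate turned a direction, for Dcn (-0.43), Lum (-0.29) and Vim (-0.13). With single libraries left out the log2 differences ran from 1.21 to 2.14 for Dcn, 1.15 to 2.17 for Lum, 0.70 to 1.10 for Vim, 1.10 to 1.76 for Timp2 and 1.04 to 1.48 for Pecam1. The median log2 difference of all genes was -0.25, -0.11 with TMM and 0.01 with quantile scaling. The median r within flox, 0.66, was 0.49 by Spearman's rho and 0.36 to 0.74 with single libraries left out. Within KO, 0.92, it was 0.86 with quantile scaling, 0.88 by rho and 0.89 to 0.94. Settings added after seeing the data were those without KO replicate 1 and flox replicate 2 together, without the pancreatic libraries, edgeR without 2 libraries and DESeq2 without replacement. Depth limits Lum most.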
